A study of Homo sapiens with 8 samples.

Results

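MOLM13 cells that had received either rescue construct were set against MOLM13 cells that had received none. MOLM13 is a long-established line of human acute myeloid leukemia. The comparison uses all 8 libraries of the series, 4 with a construct and 4 without, in 4 groups of 2. The groups were rescue (labelled IGF2BP2 rescue), mutant rescue (labelled IGF2PB2-mut rescue), control (genotype label WT) and knockdown (labelled by a hairpin against the gene, shIGF2PB2). Every group shares the MOLM13 background, infection with virus in polybrene, and puromycin where selection was needed. The labels describe neither the mutation nor the hairpin. Nor do they tell if an empty vector was given to the control and knockdown cells, or if replicates came from separate cultures. The p-values therefore cover the spread of these libraries alone, and that spread may be technical.

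The layout has 2 arms that share no library: rescue minus control, and mutant rescue minus knockdown. The construct effect is the mean of both arms. A blocking term placed rescue with control and mutant rescue with knockdown. The test of whether the arms differ is the interaction, which is rescue minus control less mutant rescue minus knockdown. Presence of a construct cannot be told apart here from any infection, selection or culture step that went with it, because no labelled group received a construct without IGF2BP2.

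Interferons are secreted proteins that cells make after sensing foreign nucleic acid. They bind surface receptors, JAK kinases then act on STAT proteins, and these join IRF9 to form a transcription factor that binds short elements near its targets, whose core is GAAA, 2 bases of any kind, and GAAA again. The targets include sensors of viral RNA and DNA, enzymes and membrane proteins that block viral growth, and the machinery that loads peptides onto MHC class I. IGF2BP2 is an RNA-binding protein that reads N6-methyladenosine and stabilizes its target transcripts.

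The authors deposited log2 expression values, normalized over the 8 libraries together, and every difference given here is on that log2 scale. The values of low genes are drawn together in all libraries, so their changes are understated. Changes of other genes can also be smaller here than the authors' deposited log2 fold changes. For IRF9 those were 3.87 in rescue over control and 2.36 in mutant rescue over knockdown. The folds and interactions given here carry this limit. Read depth is unknown. Replicates differed most in mutant rescue, where the SD of the log2 difference over genes was 0.303, against 0.233 in rescue, 0.212 in control and 0.148 in knockdown. The 11 markers of acute myeloid leukemia cells all passed the filter on low values, and their summed level was 1340 to 1810 ppm of a library with a construct and 1490 to 1690 ppm without. Erythroid markers summed to at most 1.66 ppm with a construct and 1.83 ppm without, with HBA1, HBA2, HBG1 and GYPB at 0 in every library. Epithelial and fibroblast markers summed to 9.66 to 12.0 ppm with a construct and 12.3 to 14.3 ppm without, with KRT19 and COL3A1 at 0. Lymphoid markers summed to 192 to 238 ppm and 185 to 262 ppm in the same order, with CD3E and MS4A1 at 0, and dendritic markers to 162 to 173 ppm and 145 to 177 ppm, with CLEC9A at 0.

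IGF2BP2 itself had 11.37 and 11.13 in rescue and 11.03 and 10.68 in mutant rescue, against 10.94 and 10.89 in control and 10.24 and 10.25 in knockdown. Both rescue values lay above control, both mutant rescue values lay above knockdown, and knockdown was the lowest group, as its label says. The libraries with and without a construct overlapped, since mutant rescue 2 lay below control. The construct effect was 0.47 (SE 0.11, 1.39-fold, limma adjusted p = 0.0418). The call was lost without rescue 1, mutant rescue 1, either control or either knockdown library, where the effect stayed between 0.37 and 0.54 and the adjusted p reached up to 0.134. Median centring, quantile normalization and no filter on low values each ended the call too.

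With a construct, 402 of 13028 tested genes rose (3.09%) and 137 fell (1.05%), 539 in all (4.14%), at a limma adjusted p under 0.05. Of the 539, 400 had all 4 construct libraries on one side of the other 4, a pattern held by 9.4% of all genes tested (5.93% higher, 3.46% lower). The 186 tested genes of 6 interferon lists (ligands, signalling, sensors, antiviral effectors, MHC class I and class II) gave 102 of the increases, 54.8% of those tested. None of them fell by limma's adjusted p, and 1 was lower at an unadjusted p under 0.05. That unadjusted threshold was passed by 12.8% of all genes tested in the higher direction and by 8.25% in the lower one. Outside these lists 300 of 12842 genes rose (2.34%) and 137 fell (1.07%). The interferon lists were chosen with earlier results of these data known, so the difference between these shares carries no test. The 539 calls became 138 without control 1, 183 without rescue 1, 203 without knockdown 1, 221 without knockdown 2 and 338 without rescue 2. Centring each library on its median gave 277 increases and 171 decreases, and quantile normalization gave 252 and 167. Outside the interferon lists the 300 increases became 47 without control 1, 80 without rescue 1, 82 without knockdown 1, 99 without knockdown 2, 134 without rescue 2 and 193 without mutant rescue 1. The 137 decreases there became 30 without control 1, 33 without knockdown 2, 34 without knockdown 1, 35 without rescue 1 and 77 without mutant rescue 1. Median centring left 182 increases and 171 decreases outside the lists, and quantile normalization 160 and 167.

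**Figure D1:**
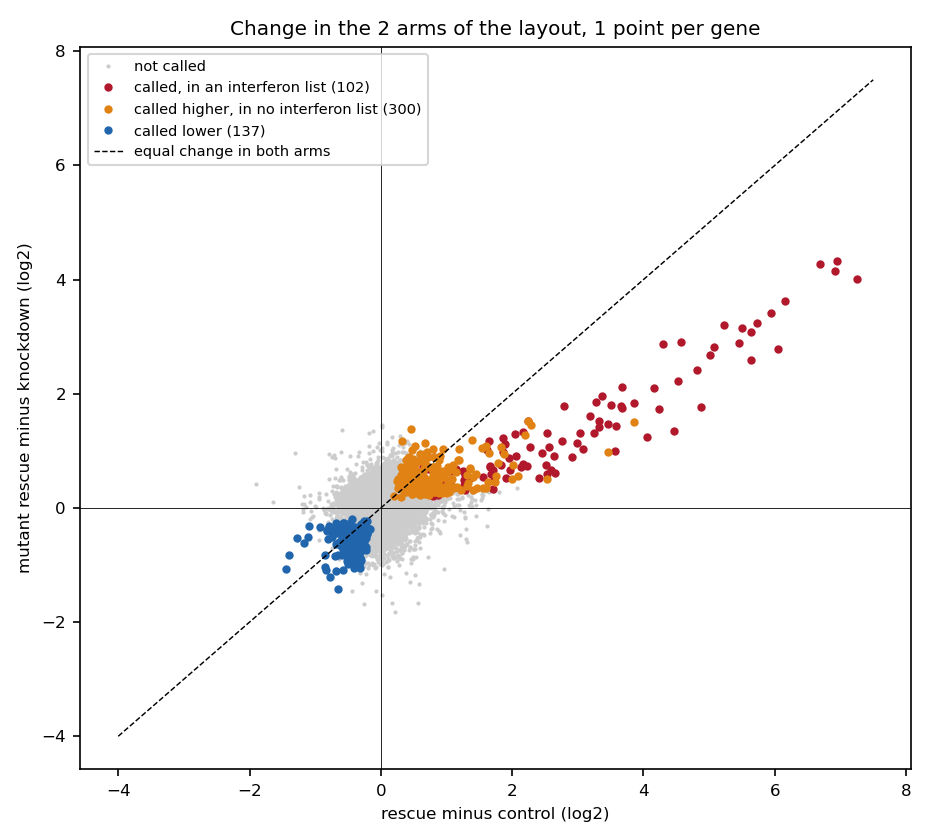
Change in rescue minus control (x axis, log2) against change in mutant rescue minus knockdown (y axis, log2), 1 point per tested gene, coloured by the call for the construct effect. The 102 called interferon genes reach the highest values on both axes and lie mostly under the dashed line of equal change, while the 300 other increases and the 137 decreases lie nearer to it.

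The strongest increases were in genes that block viral growth. Of 114 tested antiviral effectors, 79 rose and 0 fell by limma's adjusted p, and at an unadjusted p under 0.05 the counts were 101 and 0. The median change over the list was 1.31, against 0.01 over all genes tested. The summed level of the list was 24070 and 25680 ppm in rescue and 10300 and 10170 ppm in mutant rescue, against 5107 and 5118 ppm in control and 5770 and 5807 ppm in knockdown. Without control 1 the count was 50, and across the other single libraries left out it lay between 56 and 90.

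IFIT1, which binds viral RNA that lacks the host's cap methylation, had 13.43 and 13.72 in rescue and 11.45 and 11.28 in mutant rescue, against 6.59 and 6.65 in control and 6.98 and 7.09 in knockdown. Its construct effect was 5.64 (SE 0.43, limma adjusted p = 0.000583). All 4 construct libraries stood far above the other 4, and rescue stood above mutant rescue. IFIT3, its partner protein, had 14.68 and 14.99 in rescue and 12.30 and 12.18 in mutant rescue, against 7.49 and 7.69 in control and 8.22 and 8.24 in knockdown. IFI27, a small mitochondrial interferon-induced protein, had 13.22 and 13.23 in rescue and 10.86 and 10.85 in mutant rescue, against 6.15 and 6.48 in control and 6.68 and 6.73 in knockdown. IFI6, an interferon-induced membrane protein, had 14.29 and 14.28 in rescue and 12.31 and 12.98 in mutant rescue, against 7.62 and 7.58 in control and 8.45 and 8.28 in knockdown. In each of these genes the order was the same, rescue highest, mutant rescue next, then knockdown, then control. IFIT2, OAS2, OAS1, IFITM1, OASL and SIGLEC1 complete the 10 largest increases, with construct effects of 4.33 to 4.89. The 10 were called in each of the 8 fits that left out 1 library.

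The promoters of 4 of these genes are shown because they hold the element that the interferon-activated factor binds. Each run is 300 bases, from 250 before to 50 after the RefSeq start of the gene on GRCh38.p14, written 5′ to 3′ on the strand of the gene. Capitals mark matches to that core on either strand, so that a match on the opposite strand begins with TTTC and ends with TTTC.
IFIT1: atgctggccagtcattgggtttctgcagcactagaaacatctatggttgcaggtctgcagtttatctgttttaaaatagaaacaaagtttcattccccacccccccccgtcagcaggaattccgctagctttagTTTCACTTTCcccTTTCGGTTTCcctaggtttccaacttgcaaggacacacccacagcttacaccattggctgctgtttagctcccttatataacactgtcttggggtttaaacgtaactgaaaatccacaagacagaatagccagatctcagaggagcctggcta
IFIT3: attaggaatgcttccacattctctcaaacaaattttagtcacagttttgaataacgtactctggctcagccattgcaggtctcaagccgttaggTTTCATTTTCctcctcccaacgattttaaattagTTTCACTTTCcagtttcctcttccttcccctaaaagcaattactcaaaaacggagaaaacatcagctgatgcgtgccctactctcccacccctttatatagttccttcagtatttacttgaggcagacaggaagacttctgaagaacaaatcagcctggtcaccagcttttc
IFI27: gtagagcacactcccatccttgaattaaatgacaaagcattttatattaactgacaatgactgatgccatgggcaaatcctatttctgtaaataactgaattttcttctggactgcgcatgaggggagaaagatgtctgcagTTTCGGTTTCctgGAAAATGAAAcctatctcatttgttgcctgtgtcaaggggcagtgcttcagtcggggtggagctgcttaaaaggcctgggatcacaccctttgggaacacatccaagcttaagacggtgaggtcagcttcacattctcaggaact
IFI6: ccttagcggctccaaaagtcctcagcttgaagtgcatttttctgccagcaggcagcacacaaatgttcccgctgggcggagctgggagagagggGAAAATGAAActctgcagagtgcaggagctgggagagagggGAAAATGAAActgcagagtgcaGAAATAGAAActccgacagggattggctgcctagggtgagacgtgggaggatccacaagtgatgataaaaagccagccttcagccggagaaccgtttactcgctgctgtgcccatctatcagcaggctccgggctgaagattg
They lie at chr10:89392373-89392672 on the plus strand (IFIT1), chr10:89327747-89328046 on the plus strand (IFIT3), chr14:94110486-94110785 on the plus strand (IFI27) and chr1:27672143-27672442 on the minus strand (IFI6). IFI6 held 3 matches, of which the first ended 147 bases before the start and the last 84 bases before it. IFIT1, IFIT3 and IFI27 held 2 each. In IFIT1 and in IFI27 the pair is separated by only a few bases. Of the 10 genes, OAS1 had an entry with no match, IFITM1 had one with 2 matches, and IFIT2, OAS2, SIGLEC1 and OASL had no entry. Among all 27305 promoters of this length, 996 (3.65%) held a match. The share over the called interferon genes is void, because only 76.5% of them had an entry.

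Among the genes of interferon signalling, 8 of 23 tested rose and 0 fell by limma's adjusted p, and 10 and 0 did at an unadjusted p under 0.05. The median change was 0.28. IRF9, the DNA-binding subunit of the interferon-activated factor, had 9.99 and 9.97 in rescue and 9.71 and 9.66 in mutant rescue, against 7.14 and 7.25 in control and 7.87 and 7.93 in knockdown. Its construct effect was 2.29 (SE 0.18, 4.88-fold, limma adjusted p = 0.000583). IRF7, which drives interferon alpha genes, had 10.65 and 10.44 in rescue and 8.96 and 8.93 in mutant rescue, against 7.37 and 7.34 in control and 7.48 and 7.20 in knockdown. The construct libraries of both genes did not overlap the others, and mutant rescue stood closer to rescue for IRF9 than for IRF7. The rise of IRF7 was 2.40 (SE 0.27), and USP18, a negative regulator at the receptor, rose by 3.62 (SE 0.40). The receptor subunits and kinases were looked up after the values were seen. The change was -0.03 for IFNAR1, -0.02 for IFNAR2, 0.01 for JAK1 and 0.06 for TYK2, and none of these passed the test. The list's count fell to 4 without rescue 1 and without control 1.

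Of 18 tested nucleic acid sensors, 7 rose and 0 fell by limma's adjusted p, with 10 and 1 at an unadjusted p under 0.05. The 7 became 4 without control 1. IFI16, a DNA sensor, rose by 2.51 (SE 0.36), and EIF2AK2, the kinase PKR that halts translation on double-stranded RNA, rose by 1.96 (SE 0.27). TREX1, the exonuclease that removes cytosolic DNA, had 9.95 and 9.89 in rescue and 9.86 and 10.03 in mutant rescue, against 9.01 and 9.21 in control and 9.07 and 9.01 in knockdown. Its rise of 0.85 (SE 0.09, limma adjusted p = 0.00113) came at similar values in both arms, 0.81 in rescue minus control and 0.90 in mutant rescue minus knockdown. The interaction of TREX1 was -0.09 (SE 0.16, limma adjusted p = 0.735), which does not show that the arms were equal.

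MHC class I presentation showed smaller increases, with 10 of 18 tested members higher and 0 lower by limma's adjusted p (14 and 0 at an unadjusted p under 0.05) and a median change of 0.62. PSMB8, a catalytic subunit of the immunoproteasome, had 11.88 and 11.79 in rescue and 11.00 and 11.07 in mutant rescue, against 10.59 and 10.80 in control and 10.35 and 10.34 in knockdown. Another such subunit, PSMB9, rose by 1.41 (SE 0.19), and the proteasome activator subunit PSME2 rose by 0.68 (SE 0.10). B2M, the shared light chain of class I molecules, had 16.35 and 16.38 in rescue and 16.08 and 16.18 in mutant rescue, against 15.14 and 15.45 in control and 15.46 and 15.50 in knockdown. The rise of B2M was 0.86 (SE 0.13, limma adjusted p = 0.00908) and became 0.34 with an adjusted p of 0.271 under quantile normalization. The list's count fell to 4 without rescue 1 or control 1 and to 6 without either knockdown library. Of 14 MHC class II genes limma called 0, while 4 were higher and 0 lower at an unadjusted p under 0.05. CD74, the class II invariant chain, had 12.78 and 12.95 in rescue and 13.44 and 13.61 in mutant rescue, against 12.46 and 12.78 in control and 12.86 and 12.91 in knockdown.

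**Figure D2:**
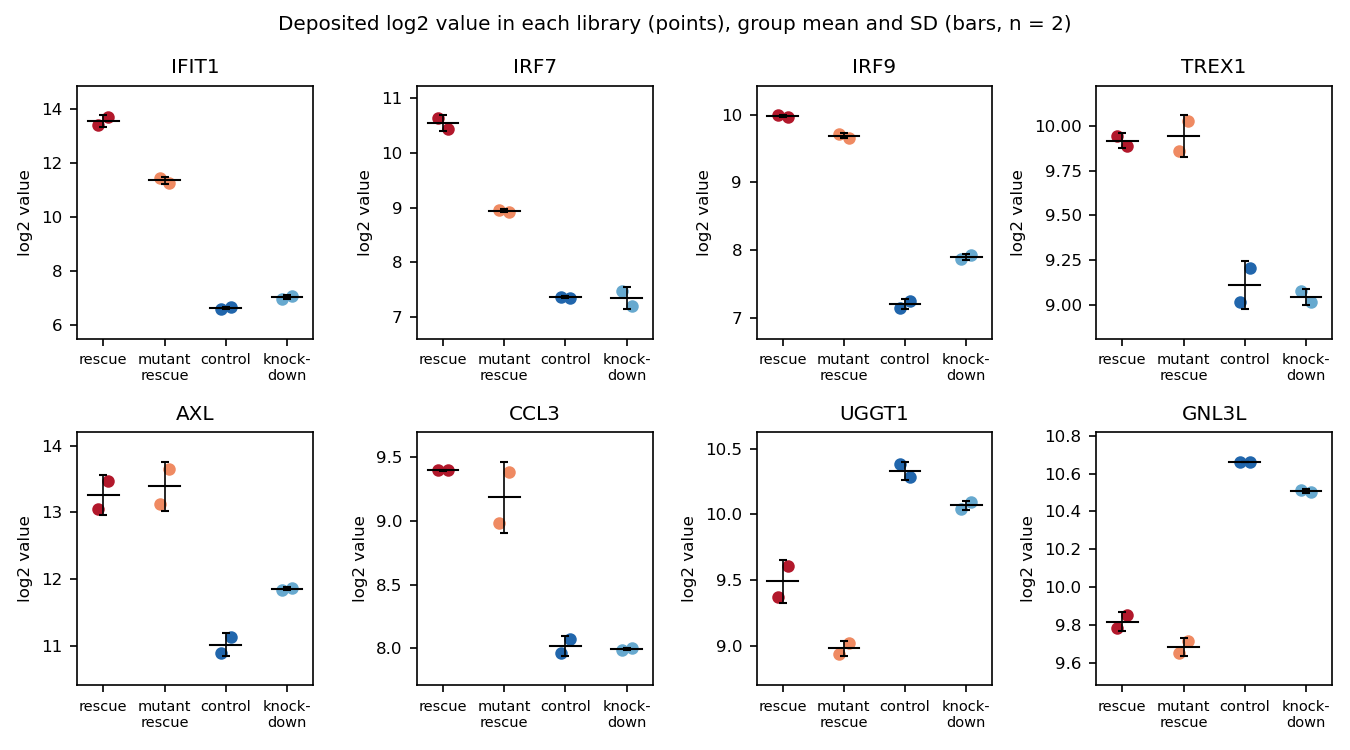
Deposited log2 value of 8 genes in each library (points, y axis) by group (x axis), with the group mean and SD (bars, n = 2). IFIT1, IRF7 and IRF9 are higher in rescue than in mutant rescue and lowest without a construct, TREX1, AXL and CCL3 reach similar values in both construct groups, and UGGT1 and GNL3L are lower in both.

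Interferon genes themselves were near the lower end of the scale. Of 17 ligand genes in the table, 6 were at 0 in every library and 1, IFNA2, passed the filter, through the rescue libraries alone. IFNA2 had 4.52 and 4.76 in rescue and 3.49 and 3.58 in mutant rescue, against 3.48 and 3.49 in control and 3.49 and 3.50 in knockdown. Only rescue stood apart for this gene. In 6 ligand genes, IFNB1, IFNA1, IFNA2, IFNA8, IFNA13 and IFNL1, both rescue libraries lay over 0.1 above every other library. All of them but IFNA2 failed the filter. The share of all genes with this pattern was not counted, so the count carries no test. IFNB1 had 3.50 and 3.67 in rescue and 3.07 and 3.01 in mutant rescue, against 2.99 and 2.99 in control and 3.04 and 2.99 in knockdown. In the authors' deposited table the log2 change of rescue over control was 7.90 for IFNB1 (adjusted p = 5.72e-05) and 8.97 for IFNA2 (adjusted p = 3.55e-07), and the adjusted p of mutant rescue over knockdown was 1.0 for both. For IFNA13 the authors' adjusted p of rescue over control was not under 0.05. For genes this low the depth behind these values is unknown.

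The interferon genes rose more in rescue minus control than in mutant rescue minus knockdown. Over the 102 called interferon genes the median change was 2.48 in the first arm and 1.02 in the second, 97 of them were larger in the first arm, and the median ratio of the second arm's change to the first was 0.467. The interaction was called for 76 of the 102. For IFIT1 the change was 6.96 in rescue minus control (SE 0.13) and 4.33 in mutant rescue minus knockdown, with an interaction of 2.62 (SE 0.18, limma adjusted p = 0.000259). The authors' deposited log2 changes of IFIT1 were 9.21 and 5.77 in the same order. Over the 300 increases outside the interferon lists the medians were 0.57 and 0.47, with a median ratio of 0.787 and 30 interactions called. Over the 137 decreases the medians were -0.44 and -0.55, with a median ratio of 1.31 and 2 interactions called. These 3 sets were chosen by the mean of both arms and their medians carry no test. The model of the construct effect has no term for the interaction, so genes whose arms differ were less likely to be called. The counts of called interactions in these sets, beside 4.5% of all genes tested, carry no test either.

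Tested alone, rescue minus control had 936 called genes (7.18%; 4.91% higher, 2.27% lower) and mutant rescue minus knockdown had 1472 (11.3%; 5.58% higher, 5.72% lower). Of these, 244 were called in both, which is 26.1% of the first and 16.6% of the second, and 216 went in the same direction, 181 higher and 35 lower. The interferon lists hold 88 of the 244. Outside them 95 genes were higher in both arms and 35 were lower in both. All 539 construct calls had both arms' estimates in one direction, which the choice of genes by the mean of the arms favours. Leaving out single libraries moved the first arm's count to between 361 (without rescue 2) and 1422 (without mutant rescue 1), and the second arm's to between 79 (without knockdown 2) and 2800 (without mutant rescue 1). In the second arm 1850 were higher and 950 lower without mutant rescue 1, and 188 higher and 296 lower without mutant rescue 2.

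Outside the interferon lists, the named increases included surface receptors, a chemokine and cytoskeletal regulators. AXL, a receptor tyrosine kinase that takes part in the uptake of dying cells, had 13.05 and 13.47 in rescue and 13.13 and 13.65 in mutant rescue, against 10.90 and 11.14 in control and 11.85 and 11.88 in knockdown. Its construct effect was 1.88 (SE 0.18, 3.69-fold, limma adjusted p = 0.00086). The rescue and mutant rescue libraries of AXL overlapped, and knockdown lay above control. CCL3, a chemokine that attracts monocytes and lymphocytes, had 9.40 and 9.40 in rescue and 8.99 and 9.38 in mutant rescue, against 7.96 and 8.07 in control and 7.99 and 8.00 in knockdown. The rise of CCL3 was 1.29 (SE 0.11, limma adjusted p = 0.000583). CCL3L1, a near copy of CCL3, rose by 1.45 (SE 0.18), and reads of the pair could have been divided between them. NEXN, an actin-binding protein, had 11.78 and 11.96 in rescue and 8.87 and 8.99 in mutant rescue, against 7.83 and 8.18 in control and 7.43 and 7.41 in knockdown. NEXN was the largest increase outside the lists, at 2.69 (SE 0.39), and rescue stood far above mutant rescue.

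The small GTPase regulators RIN2 and FGD2 rose by 1.87 (SE 0.24) and 1.42 (SE 0.21). RIN2 had 8.95 and 9.32 in rescue and 9.32 and 10.14 in mutant rescue, against 7.18 and 6.52 in control and 8.15 and 8.39 in knockdown. The secreted amino acid oxidase IL4I1 rose by 1.31 (SE 0.15) and the leucine aminopeptidase LAP3 by 1.28 (SE 0.18). LAP3, NCOA7 and SLFN5 are known as interferon-induced genes although no list here holds them, so the split by list does not separate every interferon target. The pseudogenes NAPSB and CICP14 rose by 1.30 and 1.73, and reads of their parent genes could be counted there. These 10 genes (NEXN, AXL, RIN2, CICP14, CCL3L1, FGD2, IL4I1, NAPSB, CCL3 and LAP3) were called in each of the 8 fits that left out 1 library. The other 5 of the 15 largest were not. NCOA7 (2.22) was lost without rescue 1, control 1 or control 2, with an adjusted p up to 0.084, and SIGLEC14 (1.39), which has a near copy in SIGLEC5, was lost without control 1, at 0.0595. STAP1 (1.52), IL1RN (1.32) and ADAMDEC1 (1.25) were lost without either rescue or either control library, and STAP1 and ADAMDEC1 also without mutant rescue 1, with adjusted p up to 0.123. STAP1 was lost without knockdown 1 too. Of the 300 increases, 245 (81.7%) had a promoter entry, and 12 of these (4.90%) held the core of the interferon element, beside 3.65% of all promoters.

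**Figure D3:**
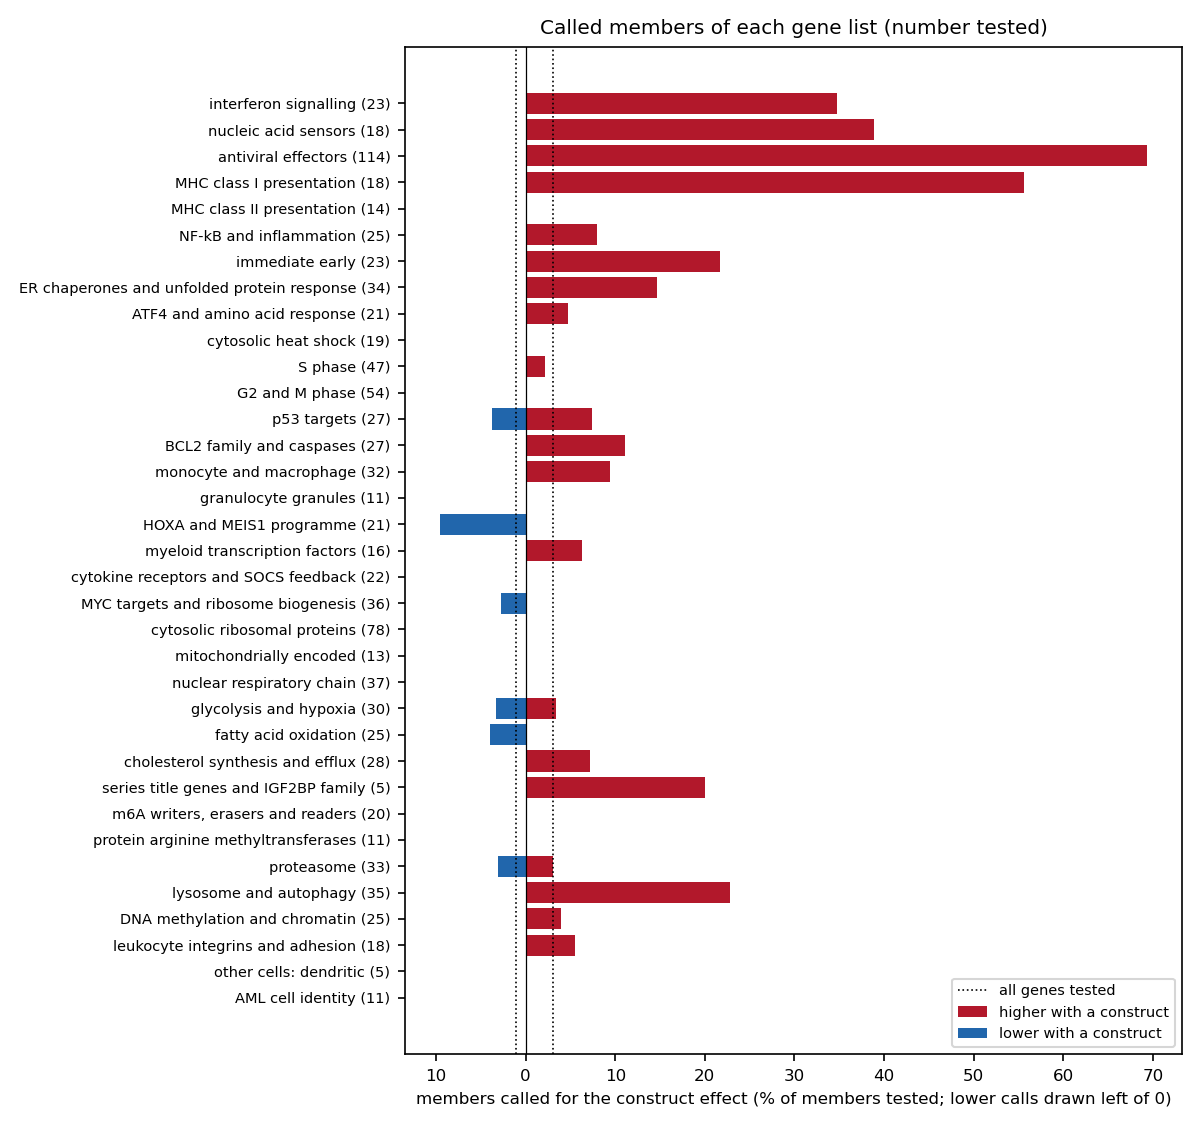
Members called for the construct effect as a percent of the members tested (x axis), higher to the right and lower to the left, for each gene list with at least 5 tested members (number tested in brackets). The dotted lines give the percents over all genes tested, 3.09% higher and 1.05% lower, and the 4 lists with the longest bars are the antiviral effectors, MHC class I presentation, nucleic acid sensors and interferon signalling.

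Among genes of the endoplasmic reticulum, 5 of 34 tested rose and 0 fell by limma's adjusted p, and 13 and 1 did at an unadjusted p under 0.05. Shares over all genes tested were 3.09% and 1.05% adjusted, and 12.8% and 8.25% unadjusted. The 5 were HSPA5, PDIA4, DNAJC3, SDF2L1 and, outside the naming rule, DERL2. HSPA5, the main chaperone of this compartment and a sensor of unfolded protein, had 15.65 and 15.73 in rescue and 15.26 and 15.25 in mutant rescue, against 14.81 and 14.86 in control and 14.74 and 14.72 in knockdown. The 4 construct libraries did not overlap the others. Its change was 0.69 (SE 0.11, limma adjusted p = 0.00976), and the adjusted p was 0.0596 without control 1 and 0.0758 under quantile normalization. PDIA4, which forms disulfide bonds, changed by 0.61 (SE 0.13), and DNAJC3, an HSP40-type co-chaperone, by 0.65 (SE 0.14). The count became 0 without control 1, 1 without rescue 1 or knockdown 2, 2 without rescue 2 or knockdown 1, and 3 without mutant rescue 2. The HSPA5 promoter is shown because it holds the element through which unfolded protein raises such genes, CCAAT and CCACG with 9 bases between them, in capitals. It lies at chr9:125241294-125241593 on the minus strand (GRCh38.p14, RefSeq).
HSPA5: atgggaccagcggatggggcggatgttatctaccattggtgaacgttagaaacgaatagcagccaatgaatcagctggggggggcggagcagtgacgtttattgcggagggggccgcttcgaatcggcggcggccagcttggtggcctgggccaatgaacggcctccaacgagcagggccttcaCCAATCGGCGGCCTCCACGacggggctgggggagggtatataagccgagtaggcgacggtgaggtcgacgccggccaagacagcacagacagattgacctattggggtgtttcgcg
The match ends 48 bases before the start. The element was found in 6 of 29 promoters of this list (20.7%), beside 0.0806% of all promoters, searching both strands. That share describes the list as it was made up and carries no test of the construct effect. Of the 5 called genes, only HSPA5 held the element.

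Lysosome and autophagy genes gave 8 increases of 35 tested and 0 decreases by limma's adjusted p, or 17 and 0 at an unadjusted p under 0.05, with a median change of 0.24. The shares over all genes tested were 3.09% and 1.05% adjusted, and 12.8% and 8.25% unadjusted. The lysosomal protease CTSD had 11.68 and 11.58 in rescue and 12.57 and 12.28 in mutant rescue, against 10.89 and 10.90 in control and 12.09 and 11.96 in knockdown. CTSB, another lysosomal protease, had 13.23 and 13.07 in rescue and 13.93 and 13.75 in mutant rescue, against 12.52 and 12.57 in control and 13.47 and 13.41 in knockdown. In both genes each construct group lay above its own partner, while rescue lay below knockdown. The changes were 0.57 (SE 0.10) for CTSD and 0.50 (SE 0.09) for CTSB. The count of 8 became 0 without rescue 1, control 1 or knockdown 2, 1 without mutant rescue 1 or knockdown 1, 3 without rescue 2, 4 without control 2, 3 after median centring and 0 after quantile normalization.

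In the list of 32 monocyte and macrophage genes, limma called 3 higher and 0 lower at its adjusted p, with 17 higher and 1 lower at an unadjusted p under 0.05. The shares over all genes tested were 3.09% and 1.05% adjusted, and 12.8% and 8.25% unadjusted. For the arms below, the adjusted shares were 4.91% higher and 2.27% lower in rescue minus control. In mutant rescue minus knockdown they were 5.58% and 5.72%. LYZ, the lysozyme of monocytes and granulocytes, had 16.66 and 16.88 in rescue and 17.86 and 18.51 in mutant rescue, against 14.99 and 15.36 in control and 17.13 and 17.07 in knockdown. Its change was 1.34 (SE 0.19, limma adjusted p = 0.00576), and under quantile normalization 0.92 with an adjusted p of 0.143. Libraries with and without a construct overlapped, because knockdown lay above rescue. CD68, a lysosomal membrane protein of macrophages, changed by 0.65 (SE 0.13), and LILRB4, an inhibitory receptor, by 0.57 (SE 0.13). The count was 1 without either rescue, mutant rescue 1 or either control library, 2 without knockdown 1 and 9 without mutant rescue 2. Within rescue minus control alone, 15 of the 32 rose and 1 fell, and these 16 became 10 without rescue 2 or control 2. Within mutant rescue minus knockdown 3 rose, and 0 without mutant rescue 2 or either knockdown library. CEBPE, a transcription factor of granulocyte maturation, rose by 0.60 (SE 0.10), with an adjusted p of 0.0543 without control 1.

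Immediate early genes, which respond within minutes to growth and stress signals, gave 5 increases of 23 tested and 0 decreases by limma's adjusted p, or 8 and 0 at an unadjusted p under 0.05. Among all genes tested the shares were 3.09% and 1.05% adjusted, and 12.8% and 8.25% unadjusted. FOSL1, a partner of JUN, had 9.38 and 9.23 in rescue and 9.01 and 9.10 in mutant rescue, against 8.77 and 8.93 in control and 8.62 and 8.43 in knockdown. EGR2, KLF6 and DUSP6, of which DUSP6 dephosphorylates ERK, changed by 0.57, 0.41 and 0.55. Quantile normalization ended the calls of KLF6 and DUSP6, and median centring that of KLF6. The count became 0 without rescue 1, control 1 or knockdown 1, 1 without knockdown 2, 2 without rescue 2 or control 2, and 3 without mutant rescue 1. In the NF-kB list CCL3 and IL1RN, already named, were the 2 of 25 called.

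Of 27 tested genes of the BCL2 family and caspases, 3 rose and 0 fell by limma's adjusted p. At an unadjusted p under 0.05 the counts were 6 and 0. Over all genes tested 3.09% rose and 1.05% fell by the adjusted p. The lists of S phase and of G2 and M phase had few calls for the construct effect. CASP4, the caspase that senses bacterial lipopolysaccharide in the cytosol, had 10.43 and 10.56 in rescue and 10.37 and 10.69 in mutant rescue, against 9.66 and 10.01 in control and 9.85 and 9.84 in knockdown. Its change was 0.67 (SE 0.11, limma adjusted p = 0.0107), and the adjusted p was 0.0512 without control 1. BAX, which opens the outer mitochondrial membrane, and CDKN1A, the p53 target that stops the cell cycle, changed by 0.62 (SE 0.12) and 0.48 (SE 0.09), and PLK2, another p53 target, by -0.55 (SE 0.10). BAX, CDKN1A and PLK2 were the calls among 27 p53 targets, and the count was 0 without control 1 or either knockdown library and 1 without rescue 1 or mutant rescue 1. E2F1, a driver of S phase entry, rose by 0.81 (SE 0.13, limma adjusted p = 0.0103) and was called in all 8 fits that left out 1 library. It was the only call among 47 S phase genes, of which 2 were higher and 10 lower at an unadjusted p under 0.05, with a median change of -0.12. Among 54 genes of G2 and M phase limma called 0, while 11 were lower and 0 higher at an unadjusted p under 0.05, with a median change of -0.12. At that threshold 12.8% of all genes tested were higher and 8.25% lower. In rescue minus control limma's adjusted p called 1 S phase gene higher and 6 lower, beside 4.91% and 2.27% of all genes. For G2 and M phase 0 were higher and 6 lower. In mutant rescue minus knockdown 3 and 2 S phase genes and 1 and 0 of G2 and M phase were called, beside 5.58% and 5.72%.

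The 15 largest decreases ran from -1.11 to -0.71, and 1 of them, MED18, had a called interaction. UGGT1, which returns misfolded glycoproteins to their chaperones, had 9.38 and 9.61 in rescue and 8.95 and 9.03 in mutant rescue, against 10.38 and 10.28 in control and 10.04 and 10.10 in knockdown. Its change was -0.96 (SE 0.09, 1.95-fold lower, limma adjusted p = 0.000884). GNL3L, a nucleolar GTPase, had 9.78 and 9.85 in rescue and 9.65 and 9.72 in mutant rescue, against 10.66 and 10.66 in control and 10.51 and 10.50 in knockdown. ZDHHC5, a palmitoyltransferase, had 9.23 and 9.16 in rescue and 9.26 and 8.96 in mutant rescue, against 10.01 and 10.08 in control and 10.12 and 10.16 in knockdown. In all 3 genes the construct libraries lay below every other library. The interaction was -0.02 (SE 0.12) for GNL3L, 0.18 (SE 0.17) for ZDHHC5 and 0.24 (SE 0.15) for UGGT1.

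LRRC58 fell by 1.11 (SE 0.14), RAB2B, a small GTPase of membrane traffic, by 1.04 (SE 0.16), PFDN6, a subunit of the prefoldin chaperone, by 0.89 (SE 0.13), and GINS4, a subunit of the replicative helicase, by 0.77 (SE 0.09). RNF125, a ubiquitin ligase that acts on the RNA sensor RIG-I, fell by 0.83 (SE 0.14). With DUTP2, a pseudogene, these 9 kept their call in each of the 8 fits that left out 1 library. The other 6 of the 15 largest decreases (NCR3LG1, PREPL, HEATR1, SNAI1, XPO7 and MED18) did not. XPO7 was lost without control 1 (adjusted p = 0.0583) and PREPL without rescue 1 or control 1 (up to 0.0614). NCR3LG1 was kept only without rescue 2 or control 2, HEATR1 only without rescue 2, mutant rescue 2 or control 2, SNAI1 only without rescue 1, mutant rescue 2 or control 2, and MED18 only without mutant rescue 1, mutant rescue 2 or knockdown 1. Their adjusted p reached up to 0.137. In the HOXA and MEIS1 list, 4 of 21 fell and 2 rose at limma's unadjusted p under 0.05, beside 8.25% and 12.8% of all genes tested. By the adjusted p 2 fell and 0 rose, beside 1.05% and 3.09%. They were CDK6, the kinase of the early cell cycle, at -0.62 (SE 0.10, adjusted p = 0.0625 without control 1), and RUNX2, at -0.59 (SE 0.14), which was kept only without mutant rescue 1 or control 2 (adjusted p up to 0.165).

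**Figure D4:**
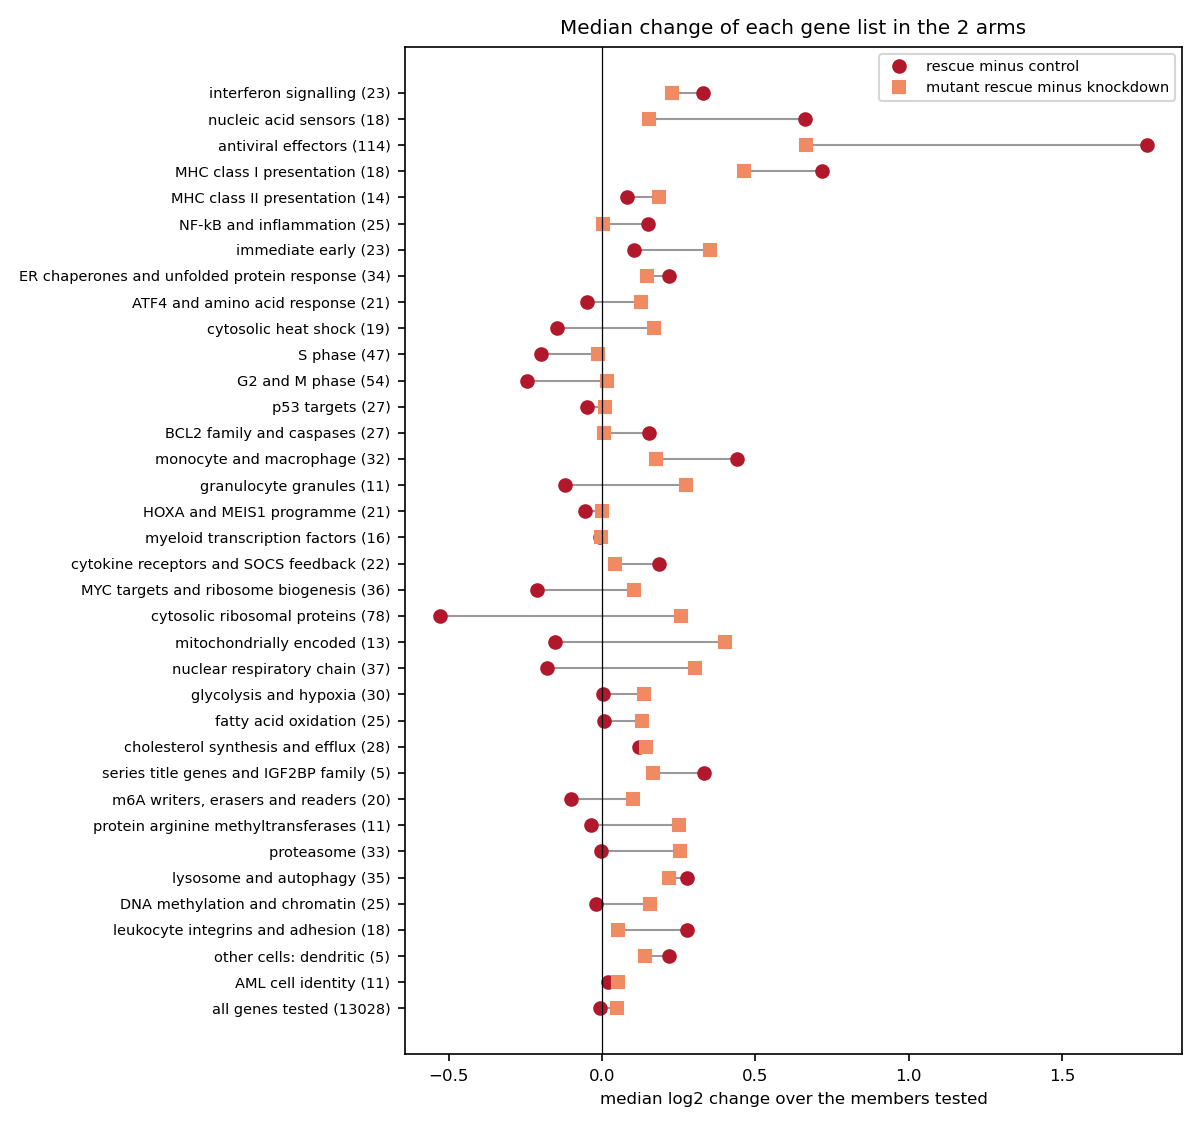
Median log2 change of each gene list over its tested members (x axis) in rescue minus control (circles) and in mutant rescue minus knockdown (squares), with all genes tested in the lowest row. Antiviral effectors lie to the right in both arms, at 1.78 and 0.67, while cytosolic ribosomal proteins lie on opposite sides, at -0.53 and 0.26.

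The interaction was called for 586 of 13028 genes (4.5%), 399 positive (3.06%) and 187 negative (1.44%). In no interferon list were 300 of the positive and 185 of the negative ones, and of these 211 had an estimate above 0 in rescue minus control and below 0 in mutant rescue minus knockdown, and 170 the reverse. Choosing genes by the difference between the arms favours opposite signs. Only 19 of the 300 and 7 of the 185 were called in both arms in opposite directions. The count of 586 became 117 without knockdown 2, 138 without knockdown 1, 141 without control 2, 167 without rescue 2, 224 without control 1 and 2058 without mutant rescue 1, where 838 were positive and 1220 negative.

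SRI, a calcium-binding protein, had 8.62 and 8.47 in rescue and 8.59 and 8.79 in mutant rescue, against 10.37 and 10.52 in control and 8.25 and 8.29 in knockdown. PTPMT1, a mitochondrial phosphatase of cardiolipin synthesis, had 7.48 and 7.25 in rescue and 7.44 and 7.42 in mutant rescue, against 8.91 and 9.09 in control and 7.30 and 7.34 in knockdown. Control stood apart for both genes, and the other 3 groups lay close together. The interaction was -2.32 (SE 0.17, limma adjusted p = 0.000301) for SRI and -1.75 (SE 0.18, limma adjusted p = 0.00232) for PTPMT1. FADD, the adaptor of death receptors, had 8.45 and 8.27 in rescue and 8.90 and 8.59 in mutant rescue, against 9.14 and 9.15 in control and 7.73 and 7.86 in knockdown. Both construct groups lay between control and knockdown. PRMT6, the arginine methyltransferase named in the series title, had 8.81 and 8.70 in rescue and 8.49 and 8.49 in mutant rescue, against 9.39 and 9.30 in control and 8.20 and 8.08 in knockdown. Its construct effect was -0.12 (SE 0.17) and its interaction -0.94 (SE 0.15, limma adjusted p = 0.0153), and the call of the interaction was lost without rescue 2, either control or either knockdown library (adjusted p up to 0.108). MFSD2A, the other gene of the title, had a construct effect of 0.03 (SE 0.14).

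The immediate early transcription factor JUN had 10.76 and 10.38 in rescue and 11.46 and 11.36 in mutant rescue, against 10.90 and 10.61 in control and 10.09 and 10.12 in knockdown. DUSP1, a phosphatase that switches off stress kinases, had 10.42 and 10.25 in rescue and 11.34 and 11.10 in mutant rescue, against 10.57 and 10.34 in control and 9.84 and 9.90 in knockdown. Mutant rescue was the highest group and knockdown the lowest for both. The change in mutant rescue minus knockdown was 1.30 for JUN and 1.34 for DUSP1, and in rescue minus control -0.18 and -0.12. SIGLEC6, a sialic acid receptor, had 9.41 and 9.62 in rescue and 10.03 and 10.52 in mutant rescue, against 8.32 and 8.30 in control and 10.81 and 10.70 in knockdown. The paralogs NPIPB5, NPIPB3 and NPIPB4, whose reads may be shared, had interactions of 2.05, 2.04 and 1.83. NPIPB5 had 10.47 and 10.95 in rescue and 9.19 and 9.33 in mutant rescue, against 10.54 and 10.45 in control and 10.98 and 11.20 in knockdown, so that mutant rescue stood apart. The interactions of SRI, PTPMT1, FADD, JUN, DUSP1, SIGLEC6 and the NPIPB genes were called in each of the 8 fits that left out 1 library.

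**Figure D5:**
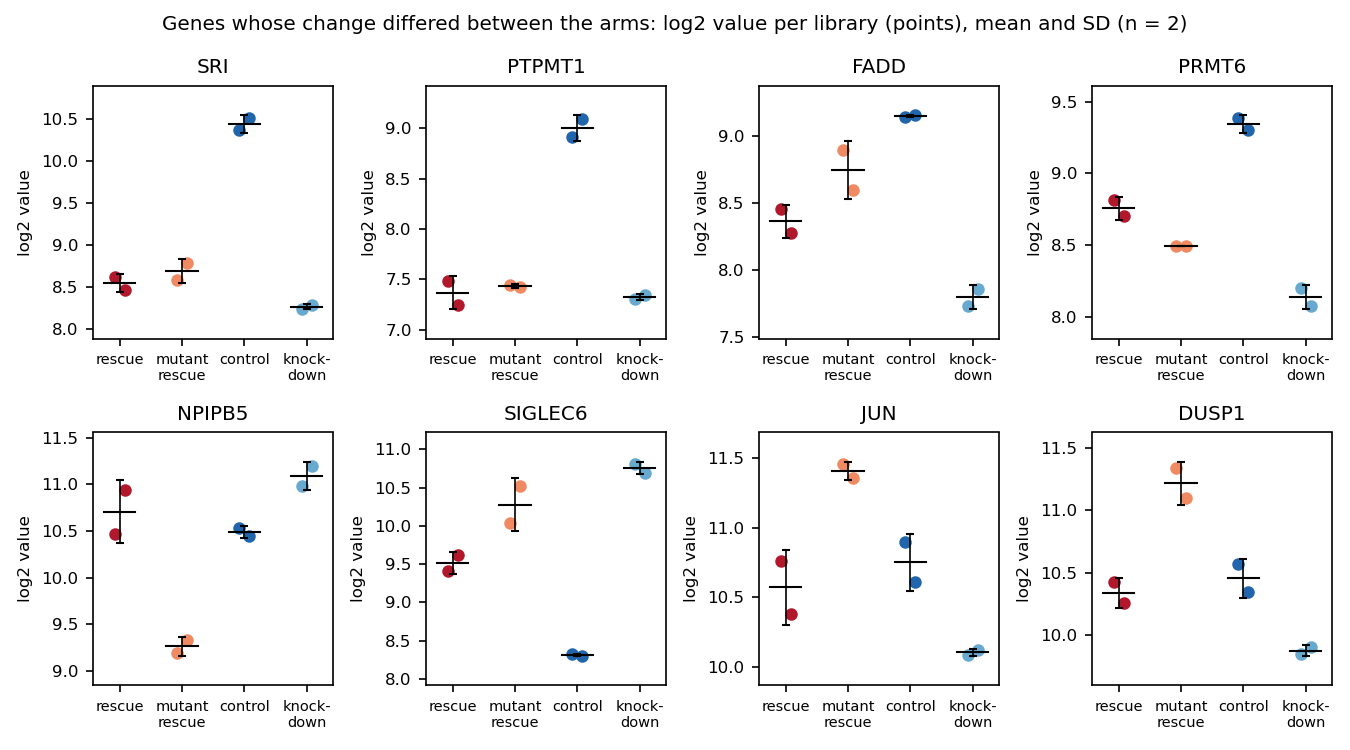
Deposited log2 value in each library (points, y axis) by group (x axis) for 8 genes whose interaction was called, with the group mean and SD (bars, n = 2). SRI and PTPMT1 are high in control alone, NPIPB5 is low in mutant rescue alone, and JUN and DUSP1 are highest in mutant rescue.

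Cytosolic ribosomal protein genes were lower in rescue than in control, and few were called in the other arm. None of the 78 cytosolic ribosomal protein genes was called for the construct effect by limma, with 0 higher and 7 lower at an unadjusted p under 0.05. Their summed level was 25170 and 22740 ppm in rescue and 29330 and 36260 ppm in mutant rescue, against 33290 and 38240 ppm in control and 31220 and 30850 ppm in knockdown. Rescue was lowest, and control and mutant rescue each had 1 library well above the other. In rescue minus control 26 of 78 fell and 0 rose, beside 2.27% and 4.91% of all genes tested, with a median change of -0.53. In mutant rescue minus knockdown 2 rose and 0 fell, beside 5.58% and 5.72% of all genes tested, with a median change of 0.26. The interaction was called for 7, all negative, beside 1.44% of all genes tested. Of its 78 estimates 1 was positive. The 7 became 0 without rescue 2, control 2 or either knockdown library, 3 without rescue 1, 4 without mutant rescue 2 or under quantile normalization and 72 without mutant rescue 1. The 26 became 1 without rescue 2, 2 without control 2, 7 without either knockdown library, 14 without rescue 1, 58 without either mutant rescue library and 45 under quantile normalization. The 2 became 37 without mutant rescue 1 and 0 without either knockdown library. The median of 0.26 became 0.07 without mutant rescue 2, 0.45 without mutant rescue 1 and 0.03 under quantile normalization, where 43 of the 78 were positive. Genes of the nuclear respiratory chain had medians of -0.18 and 0.30 in the same arms, with 0 of 37 called for the construct effect by limma and 1 higher and 2 lower at an unadjusted p under 0.05. The first of these medians became -0.04 without control 2, -0.12 without rescue 2 and -0.28 without control 1, and the second 0.09 under quantile normalization. In rescue minus control 0 of the 37 rose and 1 fell by limma's adjusted p, beside 4.91% and 2.27% of all genes tested. In mutant rescue minus knockdown 5 rose and 0 fell, beside 5.58% and 5.72%. The 5 became 1 after median centring and 0 under quantile normalization. They also depended on single libraries, and this arm's median became 0.23 without mutant rescue 2 and 0.39 without mutant rescue 1. The interaction was called for 0 of the 37, with 0 positive and 27 negative at an unadjusted p under 0.05. That count of 0 depended on mutant rescue 1. The median interaction was -0.50, and became -0.57 without mutant rescue 1 and -0.41 without mutant rescue 2. Of its estimates 0 were positive, and 4 under quantile normalization.

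Several groups gave no call for the construct effect in limma. They were cytosolic heat shock genes (19 tested, with 2 higher and 1 lower at an unadjusted p under 0.05), granulocyte granules (11, with 3 and 1), cytokine receptors and their SOCS feedback (22, with 8 and 1), mitochondrially encoded genes (13, with 1 and 1), m6A writers, erasers and readers (20, with 2 and 3), arginine methyltransferases (11, with 2 and 1) and the AML markers (11, with 3 and 1). FLT3, the receptor kinase of these cells, had 13.34 and 13.25 in rescue and 13.05 and 12.64 in mutant rescue, against 13.49 and 13.17 in control and 12.86 and 12.93 in knockdown. HSPA8, the constitutive heat shock chaperone, had 14.27 and 14.24 in rescue and 14.21 and 13.98 in mutant rescue, against 14.13 and 14.25 in control and 13.92 and 13.93 in knockdown. The libraries with and without a construct overlapped for both genes. For the unadjusted counts of these lists, the shares over all genes tested were 12.8% higher and 8.25% lower. Of the 22 cytokine receptor and SOCS genes, 6 rose and 0 fell in rescue minus control by limma's adjusted p, beside 4.91% and 2.27%. In mutant rescue minus knockdown 1 rose and 1 fell, beside 5.58% and 5.72%. Their interaction was called for 4, all positive, beside 3.06% of all genes tested. Metabolic lists gave 1 or 2 calls each. GPI rose and PGK1 fell among 30 glycolysis genes (0.53 and -0.45), CPT1A, the gate of mitochondrial fatty acid import, fell by 0.90 among 25, and NR1H2 and MSMO1 rose among 28 sterol genes (0.49 and 0.39). Each of these 5 was lost without control 1 and at least 2 other libraries, with adjusted p up to 0.148. The remaining calls by list were ATF5 (1 of 21 amino acid response genes), MRTO4 (1 of 36 MYC targets, lower), PSMA4 and PSMB2 (higher and lower, of 33 proteasome genes), SP140L (1 of 25 chromatin genes) and PECAM1 (1 of 18 adhesion genes), and each was lost without control 1 among other libraries.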

How the data were processed

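The values come from 1 deposited table that covers all libraries. Per the file headers, HOMER's getDiffExpression.pl wrote it from a gene table of 8 libraries in 4 groups. Trim Galore, kallisto, HOMER and the build GRCh38 are listed, without versions or roles, per the submitters' processing notes. Each library column gives log2 values normalized across the 8 libraries by the authors, and p-values and log2 fold changes from the authors' own comparisons were deposited in the same table. Counts were not used, so depth is unknown and 2 libraries per group limit the precision.

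limma 3.58.1 in R 4.3.3 was run on the log2 values with no pseudocount, with moderation along a mean trend. Tested genes had 1 ppm or more of the summed linear values in 2 or more libraries (13028 of 35370). The construct effect came from an additive model of construct and block (5 residual degrees of freedom), which leaves the interaction in the residual. The interaction and both arms came from group means (4 residual degrees of freedom). Benjamini-Hochberg adjustment ran over all genes tested, and genes under 0.05 were called. The procedure was tested on simulated data with 200 changed genes. Each simulated gene had the same spread in every group, and the construct effect was simulated with no interaction. These libraries differ in both respects, so recovery in them may be lower. A change of 0.5 was recovered for 59.5% of them in the construct effect, and for 0% in the interaction and in each arm. A change of 1 was recovered for 94.5% in the construct effect and 59.5% in the interaction. The arms recovered 88% (rescue minus control) and 81%, with 7.85% and 7.43% of their calls false.

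Genes were named by rule: the title genes; among called genes with libraries that do not overlap and at least 5 ppm, the 10 largest increases in interferon lists, the 15 largest increases outside them and the 15 largest decreases; the 10 largest interactions of each sign outside them; and up to 4 called members of each of 39 lists, or the highest member where none was called. Some genes that the rule names are not reported here. The members and lists were chosen with earlier results of these data known. Promoters are RefSeq entries on GRCh38.p14 matched by symbol for 10082 genes (77.4%). Alternatives were a replicate block, other filters, scalings, weights and models, and leaving out each library.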

Additional observations from a re-analysis of the deposited data

Results flagged for a closer look

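The change with a construct differed between rescue minus control and mutant rescue minus knockdown for 586 genes, by limma's interaction term at an adjusted p under 0.05. Each value below is the interaction on the log2 scale, and a positive one means a higher change in rescue minus control. Named genes are listed here for that difference alone, and its cause was not tested.

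Among the interferon genes with the largest increases, the interaction was IFITM1 3.25, IFIT3 3.24, IFI27 2.77, IFIT1 2.62, OASL 2.56, IFIT2 2.54, OAS2 2.53, OAS1 2.5, IFI6 2.41 and SIGLEC1 2.36. For other genes of the interferon lists it was USP18 2.4, IFI16 2.15, IFIH1 1.72, IFI44 1.68, EIF2AK2 1.58, IRF7 1.58, SAMD9L 1.42, PSMB9 1.08 and IRF9 1.0. The interaction calls of IRF9 and PSMB9 were lost without either knockdown library, that of SAMD9L without knockdown 2, and that of IFIH1 without either control or either knockdown library.

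Outside the interferon lists the positive interactions were NCOA7 2.49, NEXN 2.36, NPIPB5 2.05, NPIPB3 2.04, STAP1 2.02, IGHEP2 1.9, NPIPB4 1.83, ERVW-1 1.76, SLFN5 1.72, SIGLEC6 1.68, IL1RN 1.52, ADAMDEC1 1.49, SIGLEC14 1.25, PECAM1 1.25, LAP3 1.0, CICP14 0.92, SP140L 0.79 and CD68 0.66. The negative ones were SRI -2.32, ARHGAP19-SLIT1 -1.96, PTPMT1 -1.75, FADD -1.74, VAMP8 -1.62, JUN -1.49, DUSP1 -1.46, GPX7 -1.37, MIEN1 -1.37, APLP2 -1.31, RPLP0 -1.03, PRMT6 -0.94 and MED18 -0.78. Of the 8 fits that left out 1 library each, the interaction was called in 1 for CICP14, SP140L and CD68, in 2 for APLP2, MED18 and ARHGAP19-SLIT1, in 3 for SIGLEC14 and PRMT6, in 4 for RPLP0, in 5 for ERVW-1 and in 7 for PECAM1. The others of this paragraph were called in all 8.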

How the results depend on the processing

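No named gene's called change reversed its sign under the settings tried, but the balance of higher and lower calls turned in some counts. Without mutant rescue 1 the interaction had 838 positive and 1220 negative calls, against 399 and 187 with all libraries, and mutant rescue minus knockdown had 1850 increases and 950 decreases, against 727 and 745. Outside the interferon lists the construct effect had 160 increases and 167 decreases under quantile normalization, against 300 and 137 without it. Among genes called for the construct effect, quantile normalization ended the calls of IGF2BP2, STAP1, MED18, B2M, KLF6, DUSP6, HSPA5, SDF2L1, PDIA4, ATF5, CDKN1A, LYZ, CD68, LILRB4, RUNX2, MSMO1, PSMA4, CTSD, CTSB and PECAM1, and median centring those of IGF2BP2, KLF6, ATF5, LILRB4, GPI, MSMO1, PSMA4 and PECAM1. The construct effect's 539 calls became 1446 in the group means model, which takes the interaction out of the residual and still holds all 539, 1956 with array weights and 295 with no filter on low values. With no filter the interaction had 236 calls, rescue minus control 610 and mutant rescue minus knockdown 573. Mutant rescue minus knockdown had 279 calls from its own 4 libraries and 717 after quantile normalization. Leaving out 1 library at a time gave 138 to 561 calls for the construct effect, 117 to 2058 for the interaction, 361 to 1422 for rescue minus control and 79 to 2800 for mutant rescue minus knockdown. The group left with 1 library was assumed to vary like the others. Median centring gave 379 increases and 935 decreases in mutant rescue minus knockdown, against 727 and 745 without it. The cause of these shifts was not tested.

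With the replicate number as a block, the counts were 433, 747, 1010 and 1802 in the order above. Same-numbered libraries deviated together with correlations of -0.02 to 0.41, not all over 0.1, so the numbers were not taken to pair the libraries. Requiring T as the second of the 2 bases between the GAAA copies left 1.22% of promoters of the increases outside the interferon lists and 0.798% of all promoters.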
